A study of Mus musculus with 6 samples.

Results

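The p53 pathway was followed in naïve CD4 T cells through 10 genes: Trp53, which encodes p53, and 9 genes that p53 activates, namely Mdm2, Cdkn1a, Ccng1, Trp53inp1, Phlda3, Zmat3, Sesn1, Eda2r and Ei24. They were chosen by symbol, out of 46983 genes in the count tables. Of the 10, 7 were found by their symbol in the gene table the authors deposited, and Cdkn1a, Phlda3 and Eda2r, which that table does not list, were found by their GENCODE vM21 symbol. The cells came from lymph nodes of male mice and were sorted on TCRb, CD4 and CD62L and on the absence of CD44 and DAPI stain, and their rRNA-depleted RNA was sequenced in 6 libraries. The 3 control libraries came from Rnmt fl/fl mice without CD4cre and the 3 Rnmt cKO libraries from Rnmt fl/fl mice with CD4cre. All 6 carried loxP sites around an exon of Rnmt, which encodes the enzyme that methylates the guanosine cap of RNA polymerase II transcripts. The Cre transgene is driven by Cd4 regulatory sequence, which is switched on in the thymus, so deletion precedes the naïve stage, and because only Rnmt cKO cells carry Cre, an effect of Cre and one of the loss of Rnmt cannot be told apart. The labels only number the libraries, and the legends of the study describe those of a group as coming from different mice.

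p53 is a transcription factor that unstressed cells hold at a low protein level, because the ubiquitin ligase MDM2 marks it for destruction. DNA damage, faulty ribosome production and other stresses block MDM2, and the p53 protein that then accumulates switches on genes for cell cycle arrest, cell death, DNA repair and metabolism, as well as Mdm2 itself, which closes a feedback loop. Control of p53 lies mostly at the protein, so the RNA of its target genes is the usual readout of its activity.

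p53 binds a pair of adjacent half-sites, and the starts of the genes were searched for them, to show which of the genes hold such letters beside their start. RefSeq promoters (GRCm38.p6, 250 bases before to 50 bases after each start) were given for 8 of the 10 genes, as 10 promoters, and not for Trp53inp1 or Zmat3. The p53 half-site consensus, which reads the same on both strands, was met in full in 6 of these 10 promoters, each of another gene, and in 8.36% of all 32851 promoters. A pair of adjacent half-sites with at most 1 mismatch was found at Cdkn1a and Ccng1 and in 0.0883% of all promoters. The sequences are written 5′ to 3′ on the strand of the gene, with the half-sites or, for Phlda3, the letters ACATGT in capitals.
Cdkn1a, pair with 1 mismatch: tcagGAACATGTCTTGACATGTTCagcc
Ccng1, pair with 1 mismatch: ggccAGACCTGCCCGGGCAAGCCTtggc
Mdm2, half-site: atagGAACTTGCCTagcg
Trp53, half-site: ggaaGGACTTGCCCttac
Ei24, half-site: gcccGGGCATGCCCagtg
Sesn1, half-site: cttcAAGCTTGTTTttgc
Phlda3, ACATGT: tggaACATGT

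The Cdkn1a pair lies on the plus strand at chr17:29090928-29090947, from 51 to 32 bases before the start of 1 of its 2 promoters, and the same promoter holds a further half-site from 73 to 64 bases before the start. The Ccng1 pair lies on the minus strand at chr11:40755462-40755481, from 195 to 176 bases before the start. The single half-sites lie at chr10:117710935-117710944 (minus strand) for Mdm2, chr11:69580284-69580293 (plus) for Trp53, chr9:36797335-36797344 (minus) for Ei24 and chr10:41887266-41887275 (plus) for Sesn1. ACATGT, which is its own reverse complement and forms the centre of both half-sites of the Cdkn1a pair, occurs in 5.28% of all promoters. It was found 2 times in Cdkn1a and 1 time in Phlda3, at chr1:135766129-135766134 on the plus strand, where the window ends, and not in the other members' promoters. A match describes letters, not binding, and no match says only that the letters are not in this window.

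Counts on the sense strand of genes ran from 8873413 to 11277764 a library, and the share of uniquely mapped reads in no gene from 31.8% to 47.9%, lowest in Rnmt cKO 3. Rnmt RNA was at 51.5, 58.7 and 57.9 CPM in controls 1 to 3 and at 42, 37.5 and 26.6 CPM in Rnmt cKO 1 to 3, where CPM is the count scaled to sequencing depth with TMM factors; counts cover the whole gene, so what remains is not a measure of intact Rnmt. All 10 T cell markers checked were above 1 CPM in every library, and in the test described below 2 were higher and 2 lower. The 6 B cell markers summed to 70.9 to 86.5 CPM in controls and 90.9 to 155 CPM in Rnmt cKO libraries, with 4 of 6 higher in that test, where 8% of all tested genes were. The 6 myeloid markers summed to 23.6 to 28.9 and 27.3 to 37.4 CPM with Cd14 at 0 in 5 libraries, the 5 erythroid markers to 4.75 to 7.52 and 1.06 to 1.35 CPM, the 2 CD8 T cell markers to 21.7 to 23.3 and 13.5 to 17.3 CPM, the 10 markers of memory and activated T cells to 231 to 259 and 208 to 258 CPM, and the 4 NK cell markers to at most 3.04 CPM. In that test 2 of 2 CD8 T cell, 2 of 2 tested erythroid and 2 of 5 tested memory markers were lower, where 6.84% of all tested genes were. Of 3 tested myeloid markers 1 was higher, and no erythroid marker was above 1 CPM in all 6 libraries. The part of other cell types in the results was not tested.

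Phlda3 and Trp53inp1 rose in Rnmt cKO cells, Phlda3 10.8-fold from a very low level and Trp53inp1 1.35-fold from the highest level per length of the 10 genes. Cdkn1a was barely detected, with more counts in every Rnmt cKO library than in any control, and Eda2r had no count. Trp53 lay lower and Mdm2 higher in every Rnmt cKO library than in every control, but neither passed the threshold. Ccng1, Zmat3, Ei24 and Sesn1 overlapped between the groups. Genes of the cell cycle also differed between the groups. The 22 listed below as repressed by p53 through p21 summed to 156 to 181 CPM in controls and 487 to 519 CPM in Rnmt cKO libraries. The part of dividing cells in the results was not tested, and in bulk samples more cells with a transcript and more transcript per cell cannot be told apart.

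**Figure D1:**
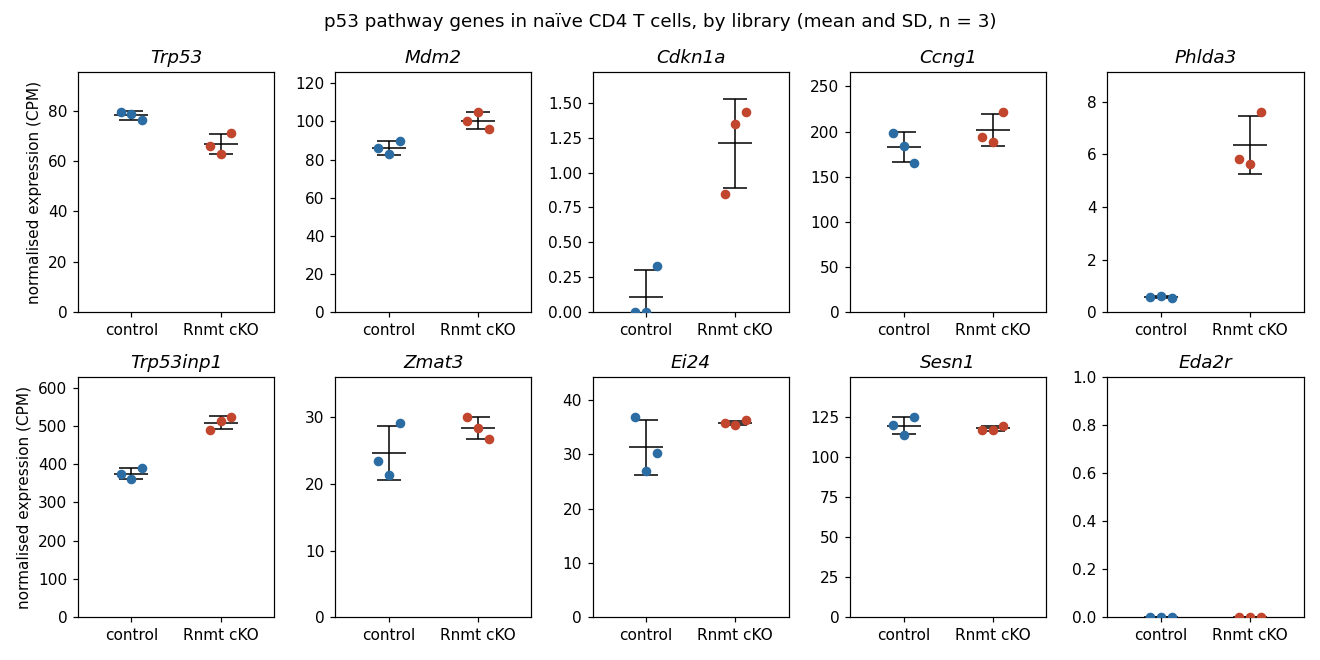
Normalised expression (CPM, linear axes from 0) of each gene in 3 control and 3 Rnmt cKO libraries, 1 point a library, with the mean as a line and the SD as bars. Phlda3, Trp53inp1, Mdm2 and Cdkn1a lie higher in all 3 Rnmt cKO libraries, Trp53 lies lower in all 3, and Eda2r is at 0 throughout.

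A gene was tested where more than 1 CPM was reached in at least 3 libraries, and differences were tested with the edgeR exact test at a Benjamini-Hochberg adjusted p of 0.05 over 12336 genes. Of these 12336 genes, 14.8% passed, 8% as higher and 6.84% as lower in Rnmt cKO cells. Of the 10 genes of the p53 pathway 8 were tested, of which 2 were higher, 0 were lower and 6 did not pass. DESeq2 and the quasi-likelihood test of edgeR also gave 2 higher and 0 lower, and at an unadjusted exact test p under 0.05 there were 3 higher and 1 lower. Of all 12336 genes DESeq2 gave 702 higher and 638 lower, and the quasi-likelihood test 793 and 636. No share of all genes is given at the unadjusted threshold. Unadjusted counts, here and in the lists below, therefore cannot be set beside 8% and 6.84%. Phlda3 entered the test only through its Rnmt cKO libraries and so had to differ, and a count over the tested genes is no support for a direction. Over the 7 genes above 1 CPM in all 6 libraries, 1 was higher and 0 were lower, against 7.25% and 6.77% of all such genes, and 2 lay higher and 1 lower in every Rnmt cKO library, against 16.1% and 15%. Their median log2 fold change was 0.20, where that of all such genes was 0.0097.

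Trp53 (ENSMUSG00000059552, chromosome 11, 69580359 to 69591873, plus strand, mm10, as for all genes here) encodes the transcription factor itself. It was at 79.5, 78.8 and 76.1 CPM in controls 1 to 3 and at 66, 62.9 and 71 CPM in Rnmt cKO 1 to 3. Every Rnmt cKO library lay under every control, as 14.9% of all tested genes did, with a log2 fold change of -0.23 (standard error 0.05) and an exact test adjusted p of 0.0915. When Rnmt cKO 3 was left out, the log2 fold change became -0.30 and the difference passed, at an exact test adjusted p of 0.00722, while without any other 1 library it did not, with adjusted p from 0.158 to 0.351. Without Rnmt cKO 3 calls rose over all genes too, to 1221 higher and 1285 lower.

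Mdm2 (ENSMUSG00000020184, chromosome 10, 117688875 to 117710758, minus strand) encodes the ubiquitin ligase that removes p53 and is itself a p53 target. Controls 1 to 3 held 86.2, 82.6 and 89.9 CPM and Rnmt cKO 1 to 3 held 100.3, 105 and 96.1 CPM. The groups did not overlap, and 16.6% of all tested genes were likewise higher in every Rnmt cKO library. The log2 fold change was 0.22 (standard error 0.05), and its exact test adjusted p of 0.0954 missed the threshold. When Rnmt cKO 3 was left out, it was 0.23 and passed, at an exact test adjusted p of 0.034, while without any other 1 library it did not, with adjusted p from 0.137 to 0.384.

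Since both genes were read in the same library, the number of Mdm2 counts per Trp53 count needs no scaling between libraries. It was 1.08, 1.05 and 1.18 in controls 1 to 3, but 1.52, 1.67 and 1.35 in Rnmt cKO 1 to 3. The mean ratio was 1.11 ± 0.0684 in controls and 1.51 ± 0.157 in the knockout (SD, n = 3 each), with no overlap. An exact permutation test (two-sided) gave p = 0.10, which is as small as 3 libraries against 3 can give, and this ratio was chosen after the values of both genes had been seen. As Mdm2 was higher and Trp53 lower in every Rnmt cKO library, the ratio had to separate the groups. The p of this permutation test was thus fixed beforehand and adds no support.

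Ccng1 (ENSMUSG00000020326, chromosome 11, 40748552 to 40755311, minus strand) encodes cyclin G1, a p53 target that acts back on p53 through MDM2. It carries the pair of half-sites with 1 mismatch shown above. Its levels were 199, 184 and 165 CPM in controls 1 to 3 and 194, 188 and 222 CPM in Rnmt cKO 1 to 3. Only Rnmt cKO 3 lay above every control, and with a log2 fold change of 0.14 (standard error 0.11) the exact test adjusted p was 0.463.

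Cdkn1a (ENSMUSG00000023067, chromosome 17, 29090976 to 29100727, plus strand) encodes p21, the inhibitor of cyclin-dependent kinases through which p53 arrests the cell cycle. Controls 1 to 3 had 0, 0 and 3 counts and Rnmt cKO 1 to 3 had 8, 16 and 16 counts. Every Rnmt cKO library was above every control, but the highest level was only 1.43 CPM, and Cdkn1a missed the test by 1 library. Scaled for depth, the 40 counts against 3 made a ratio of 11.3 with an exact 95% interval of 3.61 to 57.2, which covers counting error only. In a fit of 27286 genes with no filter on low counts, Cdkn1a passed at an exact test adjusted p of 0.000444. An annotated antisense gene overlaps Cdkn1a, and 0 counts lay on the other strand in all 6 libraries.

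Among the members that act in survival and death signalling, Phlda3 (ENSMUSG00000041801, chromosome 1, 135766119 to 135769136, plus strand) encodes a small pleckstrin homology protein that competes with the kinase AKT for membrane lipids. Controls 1 to 3 had 5, 6 and 5 counts and Rnmt cKO 1 to 3 had 55, 67 and 85 counts. In CPM these were 0.588, 0.599 and 0.552 against 5.81, 5.65 and 7.62, so that even the lowest Rnmt cKO library was far above every control. The log2 fold change was 3.43 (standard error 0.14), with an exact test adjusted p of 9.37e-20 among genes that the filter let in. With no filter on low counts, where Phlda3 did not depend on its Rnmt cKO libraries to be tested, it was 3.43 with an exact test adjusted p of 1.51e-18.

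Trp53inp1 (ENSMUSG00000028211, chromosome 4, 11156431 to 11174379, plus strand) encodes a stress-induced protein that acts with p53 in the nucleus and takes part in autophagy. It stood at 375, 361 and 391 CPM in controls 1 to 3 and at 490.2, 511 and 523 CPM in Rnmt cKO 1 to 3, with no overlap. The log2 fold change was 0.44 (standard error 0.04), at an exact test adjusted p of 0.000102. The rise was much smaller than that of Phlda3 but rested on 3187 to 6062 counts a library. Counted per Sesn1 count, which needs no scaling and was also chosen after the values were seen, Trp53inp1 was at 3.13, 3.17 and 3.14 in controls 1 to 3 and at 4.19, 4.39 and 4.38 in Rnmt cKO 1 to 3.

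**Figure D2:**
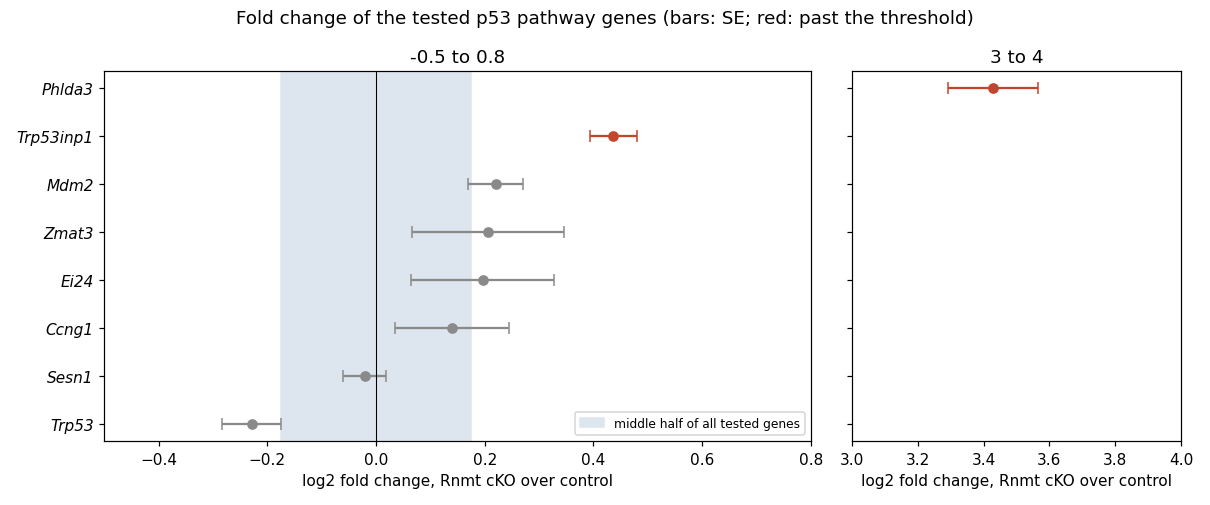
Log2 fold change (Rnmt cKO over control) of the 8 tested genes with the standard error as bars, marked where the exact test passed, beside the range from -0.17 to 0.17 that holds the middle of all 12336 tested genes. Phlda3 lies alone at 3.43, in a panel with another scale, Trp53inp1 follows at 0.44, and Trp53 lies lowest at -0.23.

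Zmat3 (ENSMUSG00000027663, chromosome 3, 32334792 to 32366014, minus strand) encodes a zinc finger protein that binds RNA. It was found at 23.4, 21.4 and 29.2 CPM in controls 1 to 3 and at 30.0, 28.4 and 26.8 CPM in Rnmt cKO 1 to 3, with control 3 inside the Rnmt cKO range. The log2 fold change of 0.21 (standard error 0.14) had an exact test adjusted p of 0.393.

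Ei24 (ENSMUSG00000062762, chromosome 9, 36779159 to 36797393, minus strand) encodes a membrane protein of the endoplasmic reticulum with a part in autophagy. Levels of 36.8, 26.8 and 30.3 CPM in controls 1 to 3 stood beside 35.7, 35.4 and 36.2 CPM in Rnmt cKO 1 to 3. The Rnmt cKO libraries were close together, while control 1 lay above all of them, and a log2 fold change of 0.20 (standard error 0.13) gave an exact test adjusted p of 0.385.

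Eda2r (ENSMUSG00000034457, chromosome X, 97333840 to 97377216, minus strand) encodes a receptor of the TNF receptor superfamily for ectodysplasin A2. It had 0 counts in each of the 6 libraries, which at 3 counts a library allows a level of up to 0.253 to 0.353 CPM.

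Sesn1 (ENSMUSG00000038332, chromosome 10, 41809935 to 41908424, plus strand) encodes sestrin 1, which restrains the growth kinase mTORC1. With 119.7, 114 and 125 CPM in controls 1 to 3 and 117, 117 and 119 CPM in Rnmt cKO 1 to 3, all Rnmt cKO libraries lay within the control range. The log2 fold change was -0.02 (standard error 0.04, exact test adjusted p 0.94). Another annotated gene overlaps Sesn1 on the same strand, so counts in the overlap are uncertain.

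Levels were compared between genes only per length, as CPM per kilobase of exon (RPKM). In controls the order was Trp53inp1 at 69.5 ± 2.82, Ccng1 at 52.1 ± 4.75, Trp53 at 41.8 ± 0.951, Sesn1 at 30.1 ± 1.36, Mdm2 at 27.4 ± 1.15, Ei24 at 12.9 ± 2.08, Zmat3 at 3.16 ± 0.519, Phlda3 at 0.404 ± 0.017 and Cdkn1a at 0.0406 ± 0.0704 RPKM (SD, n = 3 each). Neighbours in this order did not overlap over the control libraries, other than Cdkn1a and Eda2r. In the knockout Mdm2, at 31.9 ± 1.41 RPKM, stood above Sesn1, at 29.6 ± 0.375 RPKM, and Phlda3, at 4.43 ± 0.761 RPKM, above Zmat3, at 3.64 ± 0.206 RPKM (SD, n = 3 each), again with no overlap.

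**Figure D3:**
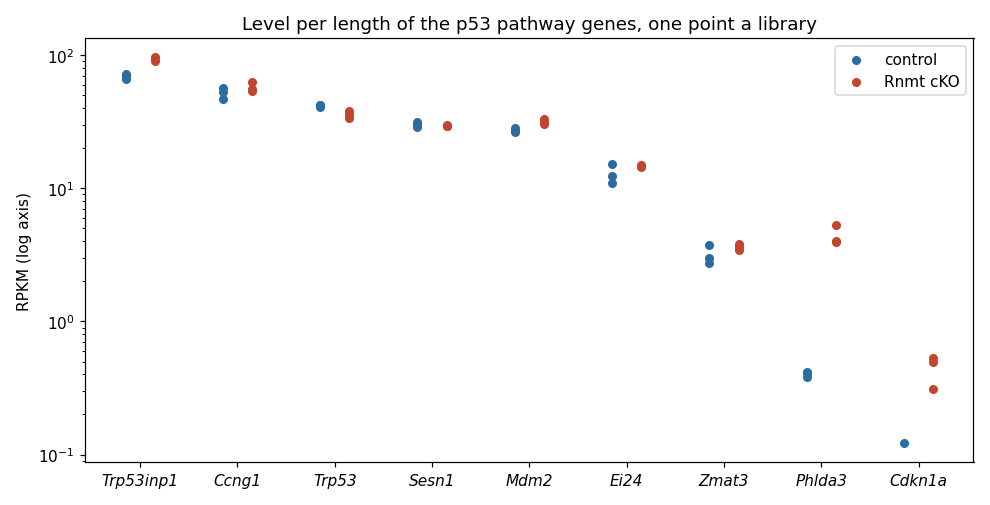
Level per length (RPKM, log axis) of the 9 detected genes, 1 point a library, in control and Rnmt cKO cells, ordered by the control mean. Libraries at 0 cannot be drawn on a log axis, so Cdkn1a shows 1 of its 3 controls, and Phlda3 moves from 0.404 to 4.43 RPKM on average.

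Further genes that p53 activates were grouped by role. Of 47 such genes 36 were tested, 8 were higher and 2 were lower, where 8% and 6.84% of all tested genes were, with a median log2 fold change of 0.07 where that of all tested genes was 0.01. Of the 32 above 1 CPM in all 6 libraries, 5 were higher and 2 lower, where 7.25% and 6.77% of all such genes were. The higher genes belonged to the lists of cell death and cell cycle arrest, and 1, Lif, to that of secreted proteins.

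Of 13 genes of cell death 12 were tested, and 4 were higher (3 by DESeq2 and by quasi-likelihood, Pidd1 being lost), or 3 of the 11 above 1 CPM in all 6 libraries. Of all tested genes 8% were higher and 6.84% lower, and of all above 1 CPM in all 6 libraries 7.25% were higher. None of the 12 was lower, with 0 lower also at an unadjusted exact test p under 0.05, by DESeq2 and by quasi-likelihood. Bax, the pore-forming effector of mitochondrial death, was at 30.2 ± 3.77 and 45.2 ± 3.7 CPM in control and knockout cells (SD, n = 3 each), a log2 fold change of 0.58 with an exact test adjusted p of 0.000108. Aen, a nuclease gene induced by p53, was at 36 ± 1.95 and 51.7 ± 7.62 CPM, with a log2 fold change of 0.52 and an adjusted p of 0.000848 in the exact test. Pmaip1, which encodes the BH3-only protein NOXA, was at 0.652 ± 0.0865 and 2.18 ± 0.631 CPM. Its log2 fold change was 1.72, with an exact test adjusted p of 0.000858. No control library reached 1 CPM, so Pmaip1 entered the test only through its Rnmt cKO libraries. Its calls are no support for a direction. Pidd1, a scaffold for caspase activation, was at 4.44 ± 0.661 and 7.04 ± 0.779 CPM, with 0.65 on the log2 scale and an exact test adjusted p of 0.0298. Bax and Aen passed in all 19 alternatives, Pmaip1 in all 14 that tested it and Pidd1 in 8 of 18, not without control 1 or 2 or Rnmt cKO 1 or 2. Bbc3, which encodes PUMA, had a log2 fold change of 0.64 and an exact test adjusted p of 0.0607. The death receptor gene Fas had 0.26 and an exact test adjusted p of 0.131. Neither passed, and both were named after their values were seen, so they do not stand for the uncalled genes. Among the 12 tested genes the lowest log2 fold change was -0.20 and the median 0.34.

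Of 9 genes of cell cycle arrest 7 were tested, and 3 were higher (2 by DESeq2 and by quasi-likelihood, Gadd45a being lost), or 2 of the 6 above 1 CPM in all 6 libraries. The shares over all genes were 8% higher and 6.84% lower of those tested, and 7.25% higher of those above 1 CPM in all 6 libraries. None of the 7 was lower, with 0 lower also at an unadjusted exact test p under 0.05, by DESeq2 and by quasi-likelihood. E2f7, a repressor of the E2F family, had a log2 fold change of 2.76, Gtse1, a regulator of p53 in late cell cycle, 1.62, and Gadd45a, a growth arrest gene, 0.75, with exact test adjusted p of 4.16e-08, 8.28e-06 and 0.0215. E2f7 and Gtse1 are also cell cycle genes expressed in dividing cells, and E2f7 reached 1 CPM in no control library. E2f7 thus entered the test only through its Rnmt cKO libraries, and its call is no support for a direction. Gadd45a passed in 7 of 18 alternatives, not without control 1 or 3 or Rnmt cKO 1 or 2.

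Of the 7 genes of DNA repair and nucleotide supply 1 was lower and 0 were higher, with 0 higher also unadjusted, by DESeq2 and by quasi-likelihood. As 6.84% of all tested genes were lower and 8% higher, 1 lower gene, here and in the next list, does not describe the list. The lower gene was Rrm2b, a subunit of ribonucleotide reductase, at 57.3 ± 4.01 and 44.9 ± 1.34 CPM in control and knockout cells (SD, n = 3 each), with a log2 fold change of -0.35 and an exact test adjusted p of 0.00757, which did not pass without control 1 or 2 or Rnmt cKO 2. Of 14 genes of metabolism, autophagy and lysosome 9 were tested, 0 were higher (1 unadjusted, 0 by DESeq2 and quasi-likelihood) and 1 was lower (0 by DESeq2 and quasi-likelihood), the small GTPase gene Rap2b, with -0.30 and an exact test adjusted p of 0.035. Rap2b passed in 7 of 19 alternatives, not without control 2 or 3 or Rnmt cKO 1 or 2. Of the 4 genes of secreted proteins only the cytokine gene Lif was tested. It was at 0.437 ± 0.0357 and 3.34 ± 0.423 CPM in control and knockout cells (SD, n = 3 each). The log2 fold change was 2.91, with an exact test adjusted p of 3.71e-11. Lif too reached 1 CPM in no control library, so it entered the test only through its Rnmt cKO libraries. Its call is no support for a direction.

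**Figure D4:**
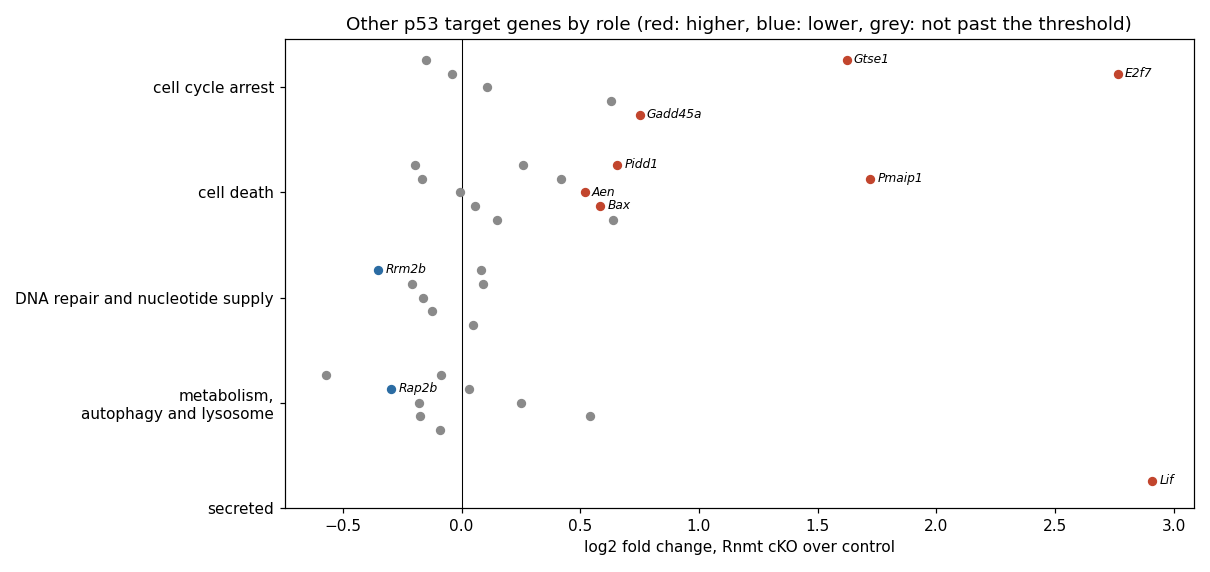
Log2 fold change (Rnmt cKO over control) of the 36 tested genes of the other p53 targets, 1 point a gene, in rows by role, with the genes past the threshold named. The 4 named genes of cell death, the 3 of cell cycle arrest and Lif lie above 0, and Rrm2b and Rap2b below.

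Paralogues of the members were listed to see whether family members moved alike. Of 14 paralogues 8 were tested, 0 were higher (2 unadjusted, 0 by DESeq2 and quasi-likelihood) and 2 were lower (1 by DESeq2, 0 by quasi-likelihood), where 8% and 6.84% of all tested genes were. Of the 6 above 1 CPM in all 6 libraries 1 was lower, where 6.77% of all such genes were. Beside Phlda3, Phlda2 had no count and Phlda1 stayed under the filter, and beside Trp53inp1, Trp53inp2 was at a log2 fold change of 0.20 with an exact test adjusted p of 0.91. Beside Cdkn1a, Cdkn1b, which encodes p27, stood at 190.4 ± 9.3 and 208 ± 0.773 CPM in control and knockout cells (SD, n = 3 each), with a log2 fold change of 0.13 that did not pass, and Cdkn1c, which encodes p57, was lower, at a log2 fold change of -1.72 and an exact test adjusted p of 0.00591, though not by quasi-likelihood or without Rnmt cKO 1. Cdkn1c was not above 1 CPM in all 6 libraries, so its place in the test rested on part of them, and its call is no support for a direction. Zmat1 was lower at a log2 fold change of -0.65 and an exact test adjusted p of 0.0198, though not by DESeq2 or quasi-likelihood, without scaling, or without control 2 or 3 or Rnmt cKO 2. Sesn2, Sesn3 and Ccng2 had log2 fold changes of 0.54, 0.06 and 0.24 that did not pass, and Trp63 and Trp73, relatives of Trp53, had at most 1 count a library.

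Of 23 regulators of the p53 protein 19 were tested, 3 were higher (2 by DESeq2, Trp53bp1 being lost, and 3 by quasi-likelihood) and 1 was lower, by all 3 tests, where 8% and 6.84% of all tested genes were. The kinase gene Hipk2, the chaperone gene Daxx and Trp53bp1, which encodes 53BP1, had log2 fold changes of 0.48, 0.50 and 0.31 with exact test adjusted p of 0.00363, 0.000875 and 0.0244, and Ppp1r13b, which encodes the p53 cofactor ASPP1, had -0.34 and 0.0066. Hipk2 did not pass without control 1 or 2, Trp53bp1 not when any 1 library other than Rnmt cKO 3 was left out, and Ppp1r13b not without control 2 or 3 or Rnmt cKO 1 or 2. Mdm4, the partner of MDM2 and a paralogue of its gene, had a log2 fold change of -0.16 (exact test adjusted p 0.609).

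Of 13 genes for ribosomal and nucleolar proteins known to bind MDM2, 10 were lower, where 6.84% of all tested genes were (10 by DESeq2, 9 by quasi-likelihood), with a median log2 fold change of -0.67, and 0 were higher, also unadjusted and by both other tests. The 10 were all the ribosomal protein genes of the list, a family that the study singled out in these libraries, so the count is not independent evidence. Rps27, Rps14, Rps7, Rps3 and Rpl23 had log2 fold changes of -0.97, -0.90, -0.84, -0.76 and -0.74. Rpl5 and Rpl11, whose proteins bind MDM2 together with the 5S rRNA, had -0.61 and -0.44 with exact test adjusted p of 0.00122 and 0.0378, and Rpl11 did not pass when any 1 library other than Rnmt cKO 3 was left out. The nucleolar genes Npm1, Ncl and Gnl3 were at -0.13, 0.03 and 0.03 and did not pass.

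All 20 genes of DNA damage signalling were tested, and 5 were higher, also by DESeq2 and quasi-likelihood, or 4 of the 19 above 1 CPM in all 6 libraries, and 0 were lower (1 unadjusted, 0 by DESeq2 and quasi-likelihood). Of all tested genes 8% were higher and 6.84% lower, and of all above 1 CPM in all 6 libraries 7.25% were higher. The 5 were Clspn, Chek1, Brca1, H2afx and Topbp1, with log2 fold changes of 2.64, 1.79, 1.12, 0.94 and 0.47, where Chek1 reached 1 CPM in 1 of 3 controls. The sensor kinase genes Atm, Atr and Prkdc were at 0.10, -0.20 and -0.06 with exact test adjusted p of 0.613, 0.179 and 0.813. Clspn, Chek1 and Brca1 are also known as genes of S phase.

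Cell cycle genes that p53 represses through p21 and the DREAM complex were also listed. Of 22 such genes 21 were tested and 19 were higher (18 by DESeq2, 19 by quasi-likelihood), where 8% of all tested genes were. By the exact test 0 were lower, where 6.84% of all tested genes were, and 0 also by the other tests or unadjusted. The median log2 fold change was 2.02, but 8 of the 21 were not above 1 CPM in all 6 libraries. Of the 13 that were, 11 were higher, where 7.25% of all such genes were, with a median of 1.66. Ccna2, Nusap1, Cenpf, Birc5 and Mki67 had log2 fold changes of 3.66, 3.48, 3.29, 3.19 and 2.94. They were named by size of fold change, whether or not they were above 1 CPM in all 6 libraries.

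Genes with a profile over the 6 libraries like that of Cdkn1a or Mdm2 were looked up among 9698 genes by Pearson's r of log2 CPM. The libraries come from 2 groups whose difference enters r, so this is a description. Nearest to Cdkn1a were Clint1 at 0.992, Rtf1 at 0.99, Rest at 0.989, and nearest to Mdm2 were Syne3 at 0.999, Tet1 at 0.997, Armcx3 at 0.995.

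Over other ways to handle the counts, Phlda3 passed in all 14 that tested it, with a log2 fold change from 3.26 to 3.54, and Trp53inp1 in 18 of 19, from 0.40 to 0.56. Mdm2 and Trp53 passed in 4 of 19 each, with ranges from 0.18 to 0.35 and from -0.30 to -0.11. For each gene 2 of these 4 were fits without Rnmt cKO 3, so the 4 are not separate results. The others were the share of reads in no gene as covariate, and no scaling for Mdm2 or the 10 CPM filter for Trp53. With the covariate 1696 genes were higher and 1466 lower of all. Ccng1 passed in 2, and Zmat3, Ei24 and Sesn1 in 0 of 19.

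**Figure D5:**
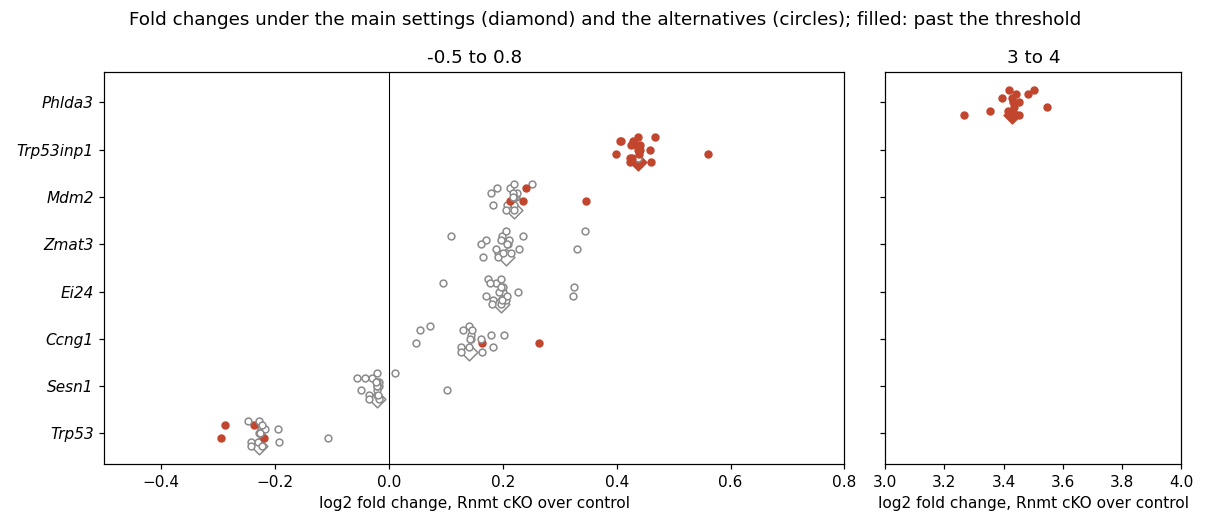
Log2 fold change of the 8 tested genes as reported and under each alternative, filled where past the threshold, with Phlda3 in a panel of another scale. Phlda3 is filled throughout, Trp53inp1 in all but 1 alternative, and Sesn1 is the 1 gene with values on both sides of 0.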

How the data were processed

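Reads were aligned by the authors to mm10 with STAR 2.5.2b and GENCODE vM12, and the deposited tables hold raw counts per gene and library, by strand. Sense counts were used here, because a constant per library turned them into the signal that the authors' own table lists, to within 1% for 100% of its 11221 genes. The log2 fold changes, means and p-values in that table were not used, and reads in no gene were kept out of library sizes.

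Genes above 1 CPM in 3 or more libraries were compared with the exact test of edgeR 4.0.16 (R 4.3.3) and Benjamini-Hochberg adjustment, a filter and test that the study names. This filter kept 12336 genes, Phlda3 among them, where the authors' table lists 11221 without Phlda3. A filter of 1 CPM in all 6 libraries kept 11232, and which filter gave the authors' table was not tested. TMM scaling was chosen here, since the scaling is not given in the sources used here. Standard errors come from log2 CPM with a prior count of 2. RPKM used exon lengths of GENCODE vM21. Alternatives changed the scaling, filter, strand, test (DESeq2 1.42.0, edgeR quasi-likelihood), covariates or libraries. The code was tested on simulated data. No pair of libraries in a group agreed within sampling noise (chi-square per degree of freedom of at least 3.85). Rnmt cKO 1 and 2 were at 3.85, while Rnmt cKO 3 was at 24.2 with Rnmt cKO 1 and 25.2 with Rnmt cKO 2. The control pairs ran from 4.46 to 14.4.

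The genes and lists were chosen with earlier results of these data known. All members were named, and from each list the genes past the threshold, at most the 5 largest each way, plus paralogues. Other genes were named after their values were seen.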

Additional observations from a re-analysis of the deposited data

How the results depend on the processing

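Of the tested members, all but Sesn1 kept their direction in each alternative that tested them, 14 of 19 for Phlda3. Sesn1 was at 0.10 without scaling beyond library size and ran from -0.056 to 0.010 over the fits that left out 1 library. The number of higher members, 2 as reported, was 4 without scaling and with the share of reads in no gene as covariate, 1 under a filter of 1 CPM in all 6 libraries, under one of 10 CPM in 3 and with a replicate block, and 1 to 3 without 1 library. The number of lower members, 0 as reported, was 1 (Trp53) under the 10 CPM filter and with the covariate, and 0 to 1 without 1 library, where the 1 was again Trp53 and Rnmt cKO 3 the library left out. The median log2 fold change of the tested members, 0.20, was 0.19 with DESeq2, with its size factors and under the 10 CPM filter, 0.33 without scaling, 0.21 with counts of either strand and 0.13 to 0.21 without 1 library, with 0.18 without Rnmt cKO 1 where the tested genes were kept. Without scaling the median of all genes moved from 0.01 to 0.14 and 1938 genes were higher and 535 lower, against 987 and 844. Over the wider lists 115 genes were tested and 35 were higher, with 23 under the filter in all 6 libraries and 15 under the 10 CPM filter, which test fewer genes, and 15 were lower, with 4 under the replicate block and 9 to 16 without 1 library. Of all tested genes 8% were higher and 6.84% lower. The cell cycle list held 19 of the 35 and the ribosomal protein genes 10 of the 15, so the pooled counts do not describe p53 targets. The cause of the other shifts was not tested.

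Replicate numbers did not pair the libraries: deviations of same-numbered libraries correlated at -0.21, -0.02 and -0.35, and no library correlated best with its own number. With the replicate block Trp53inp1 was at 0.44 with a quasi-likelihood adjusted p of 0.0517, and 431 genes were higher and 276 lower of all. Phlda3 was not tested without 1 Rnmt cKO library, since 2 libraries cannot meet the filter, and fits that kept the tested genes, added after seeing the data, gave 3.26 to 3.50. Depth limits Cdkn1a and Eda2r.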
